A study of Mus musculus with 4 samples.

Results

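Transcripts of the mTOR complexes and of their closest regulators were followed in B16F10 melanoma across 4 culture and tumor conditions. The genes are Mtor, Rptor, Rictor, Mlst8, Akt1s1, Deptor, Tsc1, Tsc2, Rheb and Eif4ebp1. They were taken by symbol from the deposited table of reads per gene, as 10 of 24527 listed genes. All 10 had a mean of at least 1 CPM (counts per 1000000 reads, after TMM scaling, which sets the libraries to a common level), as did 12728 genes in all. Mtor is also among the genes that the study singled out from these same libraries, as equally expressed in spheroid and tumor, so its values there are a description and no independent evidence. By immunofluorescence, the study reports mTOR protein only in tumor tissue and in spheroids of both lines. Read counts measure RNA and not protein, so the levels below are not set against that result.

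B16F10 is a pigmented melanoma line derived from a C57BL/6 mouse, and all 4 libraries carry the genotype label WT. The study asked how far melanoma cells grown in 3D with fibroblasts resemble those of a tumor in a mouse. The 2D monoculture was B16F10 grown alone on a flat surface, the 2D co-culture was B16F10 grown flat with NIH/3T3 mouse fibroblasts, and the spheroid library came from hanging-drop spheroids of both lines. The study's methods describe a commercial B16F10 line with a green fluorescent protein (Linterna), from which GFP-positive living cells were sorted out of the cultures. The tumor was raised by subcutaneous injection of B16F10 cells into 1-year-old female C57BL/6 mice, a strain with a working immune system. The design text calls the tumor cells sorted, whereas its library is labelled as snap-frozen tumor. The methods give n = 3 for the RNA extraction without saying what was counted or pooled, whereas the labels list 1 library per condition, and the day of RNA extraction from the cultures is not stated there. With 1 library each, the conditions have no replicates here, so differences between conditions below are without a check by replicates and carry no p-value. Intervals are 95% intervals that cover counting error only.

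The libraries held between 118896900 and 150028663 reads, and 3 reads, the limit that a count of 0 allows, equalled 0.0185 to 0.0262 CPM depending on the library. All 8 melanocyte markers examined, among them Tyrp1, Dct and Pmel, were above 1 CPM in every library, with summed levels between 10584 CPM in spheroid and 18873 CPM in tumor. The tumor library stood apart in other cell types. Its 8 myeloid markers summed to 1839 CPM against 9.96 to 29.9 CPM in the cultures, where only 2 of the 8 reached 1 CPM. Its 6 skeletal muscle markers summed to 5048 CPM against 4.80 to 14.0 CPM in the cultures, with Myh4 at 0 in the 2D monoculture. Its 8 fibroblast markers summed to 2718 CPM against 17.6 CPM in 2D monoculture and 36.5 in spheroid, and the 2D co-culture held 679 CPM. Of the 6 endothelial markers, all 6 reached 1 CPM in tumor and 1 of 6, Eng, in each culture, with sums of 271 to 329 CPM in the 4 libraries. How far these other cells contribute to the levels in the tumor and the co-culture was not tested. In bulk RNA, fewer cells of a type and less RNA per cell cannot be told apart.

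mTOR is a protein kinase that works in 2 complexes. In mTORC1, Raptor (the product of Rptor) recruits substrates such as 4E-BP1 (the product of Eif4ebp1), a brake on cap-dependent translation, and the complex drives protein synthesis and restrains autophagy when amino acids and growth factors are present. In mTORC2, Rictor takes the place of Raptor, and AKT is the best known substrate. The small GTPase Rheb switches mTORC1 on at the lysosome, the TSC1-TSC2 complex switches Rheb off, and PRAS40 (the product of Akt1s1) and DEPTOR restrain the kinase. Most of this control acts on proteins through phosphorylation and binding, which read counts do not measure.

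Upstream sequences are shown for Mtor, for the member with the profile nearest to that of Mtor across the 4 libraries (Tsc2) and for the member with the farthest profile (Rictor), to be read side by side. They are RefSeq sequences of build GRCm38.p6, 242 bases from position -250 to -9 before the annotated start, written 5′ to 3′ on the strand of the gene. Mtor lies on the plus strand at chr4:148448332-148448573, Tsc2 on the minus strand at chr17:24632636-24632877, and Rictor on the plus strand at chr15:6708131-6708372. Capitals mark matches, on either strand, to the ETS core CCGGAAG, the CCAAT box ATTGG and the GC box GGGCGG.
Mtor: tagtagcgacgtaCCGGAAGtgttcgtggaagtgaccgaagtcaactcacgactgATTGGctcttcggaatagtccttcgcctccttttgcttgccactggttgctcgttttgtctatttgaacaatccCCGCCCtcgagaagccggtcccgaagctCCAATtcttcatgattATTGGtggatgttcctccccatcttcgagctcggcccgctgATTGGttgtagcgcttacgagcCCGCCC
Tsc2: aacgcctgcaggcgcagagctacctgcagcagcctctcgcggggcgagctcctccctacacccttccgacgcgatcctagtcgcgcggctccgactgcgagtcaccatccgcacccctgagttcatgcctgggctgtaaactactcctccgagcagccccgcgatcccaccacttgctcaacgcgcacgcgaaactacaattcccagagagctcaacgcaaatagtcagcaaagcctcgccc
Rictor: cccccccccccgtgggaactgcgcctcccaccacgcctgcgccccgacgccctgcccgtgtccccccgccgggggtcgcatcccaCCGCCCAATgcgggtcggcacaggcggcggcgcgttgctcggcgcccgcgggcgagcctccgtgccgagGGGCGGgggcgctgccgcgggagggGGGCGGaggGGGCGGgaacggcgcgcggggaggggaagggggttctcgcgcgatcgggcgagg
Over the full 250 bases, the Mtor promoter held 1 ETS core, 4 CCAAT boxes and 2 GC boxes. Of 32851 mouse promoters searched over the same length, 6.91% held the ETS core, 33.8% the CCAAT box and 32.7% the GC box. Tsc2 held 1 ETS core at -8 to -2, past the stretch printed, and no other motif searched. Rictor held 4 GC boxes and 1 CCAAT box that overlaps a GC box, and its upstream sequence was 81.2% G and C, against 54.4% for Mtor, 62.8% for Tsc2 and a median of 52.4% over all promoters. Among the other 5 members with an entry, Akt1s1 held 1 ETS core and 2 GC boxes, Rheb held 1 GC box and 1 E-box CACGTG (in 6.02% of promoters), and Rptor, Mlst8 and Tsc1 held no motif searched. The ATF4-type core TGATGNAA, in 3.45% of promoters, and the CRE core TGACGT, in 6.47%, were in none of the 8 sequences. These matches are descriptions of letters only, and a link between sequence and profile was not tested. Deptor and Eif4ebp1 are named only.

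Mtor, the catalytic subunit of both complexes, spans chromosome 4 from 148448611 to 148557683 (GRCm38) with 58 exons in its transcript. It was at 104 CPM in 2D monoculture, 54.3 in 2D co-culture, 35.2 in spheroid and 29.4 in tumor. The 2D monoculture thus held the most Mtor, 2.96-fold more than the spheroid and 3.54-fold more than the tumor. Spheroid and tumor were the closest neighbours in this order, with counting intervals of 34.3 to 36.3 CPM and 28.6 to 30.2 CPM that did not overlap. The spheroid exceeded the tumor by a log2 ratio of 0.26 (interval 0.20 to 0.32), which turned negative when libraries were scaled by total counts or when genes of like GC content and length were used as the reference, so its direction depends on the processing.

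Rptor, which encodes the substrate-recruiting subunit of mTORC1, was at 123 CPM in 2D monoculture, 85.1 in 2D co-culture, 84.3 in spheroid and 29.0 in tumor. The 2D co-culture and the spheroid could not be separated by counting error, with a log2 ratio of -0.01 (interval -0.05 to 0.03). This was the sole pair with overlapping intervals among the 30 pairs of libraries that are neighbours in the order of a member. The tumor was low, at 4.22-fold less than the 2D monoculture and 2.90-fold less than the spheroid.

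Mlst8, a subunit of both complexes, was at 16.3 CPM in 2D monoculture, 20.0 in 2D co-culture, 12.8 in spheroid and 10.9 in tumor. Its highest level was 1.84 times its lowest, a narrow range that was close to the 1.83 times of Rheb. Mlst8 shares 997 exonic bases, 29.7% of its exon length, with Bricd5 on the opposite strand, and the library kit is not stated to mark strand, so reads of these genes cannot be told apart there.

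Rictor, the defining subunit of mTORC2, was at 88.9 CPM in 2D monoculture, 28.1 in 2D co-culture, 23.2 in spheroid and 138 in tumor. It was the one member with its highest level in the tumor, 5.94-fold above the spheroid and 1.55-fold above the 2D monoculture. Both cultures with fibroblasts were low, at 3.16-fold (2D co-culture) and 3.83-fold (spheroid) less than the 2D monoculture.

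Among the inhibitors of the kinase, Akt1s1 was at 211 CPM in 2D monoculture, 179 in 2D co-culture, 229 in spheroid and 82.3 in tumor. The 3 cultures lay within 1.28-fold of each other and the tumor was 2.79-fold below the spheroid. Deptor was at 80.1 CPM in 2D monoculture, 36.8 in 2D co-culture, 12.8 in spheroid and 41.1 in tumor. Deptor had the widest range of the 10 members, 6.26-fold between the 2D monoculture and the spheroid, so the transcripts of these inhibitors did not move alike. After the median of genes of like GC content and length was taken off, the log2 ratio of Deptor in spheroid to 2D monoculture went from -2.65 to -1.24.

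**Figure D1:**
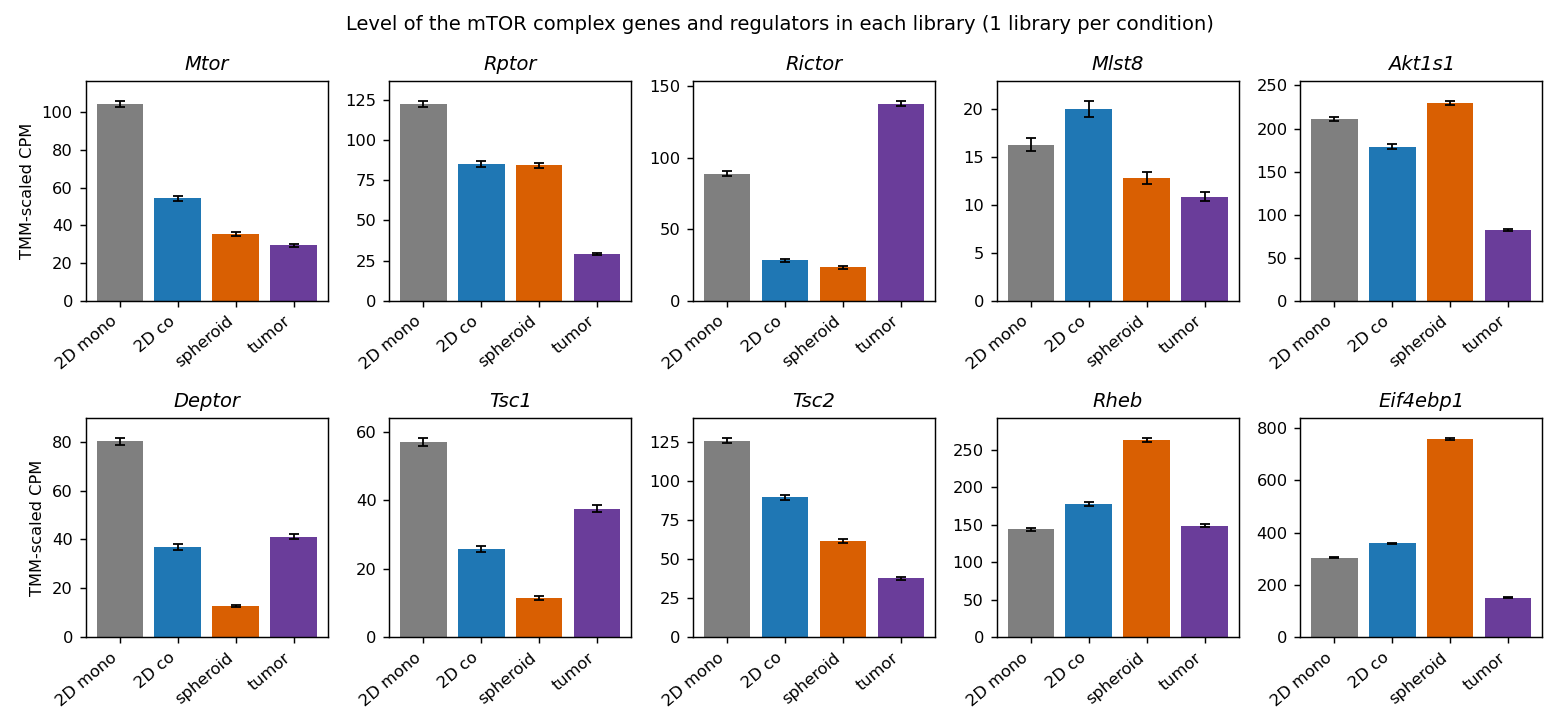
TMM-scaled CPM of each of the 10 genes (panels, linear axis) in the 4 libraries, with 1 coloured bar per library and error bars for the 95% counting interval. Mtor, Rptor, Deptor, Tsc1 and Tsc2 peak in the 2D monoculture, Akt1s1, Rheb and Eif4ebp1 in the spheroid, Rictor in the tumor and Mlst8 in the 2D co-culture.

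Upstream of mTORC1, Tsc1 encodes hamartin, which stabilizes TSC2. It was at 57.1 CPM in 2D monoculture, 25.7 in 2D co-culture, 11.6 in spheroid and 37.6 in tumor. Tsc2 encodes tuberin, the GTPase-activating subunit that acts on Rheb, and was at 126 CPM in 2D monoculture, 89.6 in 2D co-culture, 61.7 in spheroid and 37.9 in tumor. Both were highest in the 2D monoculture and lower in each culture with fibroblasts, yet Tsc1 was lowest in the spheroid and Tsc2 in the tumor. Tsc2 shares 693 exonic bases, 10.9% of its exon length, with Pkd1 on the opposite strand, so part of its reads is likewise uncertain.

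Rheb, the activator of mTORC1, ran the other way. It was at 144 CPM in 2D monoculture, 178 in 2D co-culture, 263 in spheroid and 149 in tumor. The spheroid was 1.83-fold above the 2D monoculture, and tumor and 2D monoculture lay within 1.03-fold of each other, with a log2 ratio of 0.05 (interval 0.02 to 0.07) that turned to -0.39 against genes of like GC content and length.

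Eif4ebp1, the gene of the translation repressor that mTORC1 inactivates, was at 304 CPM in 2D monoculture, 359 in 2D co-culture, 758 in spheroid and 151 in tumor. The spheroid stood out as high, 2.49-fold above the 2D monoculture, 2.11-fold above the 2D co-culture and 5.01-fold above the tumor. With total counts as the scaling, the ratio to the 2D co-culture was just under 2-fold (log2 0.99).

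Over the 10 members, the highest level was a median of 3.88 times the lowest, against 2.86 times for all 12728 genes. The tumor held the lowest level of 6 members, the spheroid of 3 (Rictor, Deptor and Tsc1) and the 2D monoculture of 1 (Rheb). Without the tumor library, a comparison added after the data were seen, the median range was 2.27 times, against 1.92 times for the 12488 genes with reads in every culture. Among the 3 cultures alone, the 2D monoculture held the highest level of 6 members and the spheroid the lowest level of 7. The shares of all genes with their highest or lowest level in each library were not counted, so these counts describe the members only.

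Per kilobase of exon length, which is needed to set genes beside each other, Eif4ebp1, Rheb and Akt1s1 held the top 3 places in all 4 libraries. Eif4ebp1 led the cultures, with 152 CPM per kb in the 2D monoculture, 179.6 CPM per kb in the 2D co-culture and 379 CPM per kb in the spheroid. In the tumor, Rheb led at 83.4 CPM per kb and Eif4ebp1 followed at 75.7 CPM per kb. The lower places changed from library to library. Rictor held the last place in the 2D co-culture, at 3.02 CPM per kb, and the fourth place in the tumor, at 14.8 CPM per kb, while Deptor and Tsc1 were last in the spheroid at 1.476 and 1.502 CPM per kb. Mlst8 was last in the 2D monoculture, at 4.84 CPM per kb, and in the tumor, at 3.23 CPM per kb.

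Ratios between members of one library do not depend on how libraries are scaled. Reads per kb of Rptor over Rictor, the subunits that tell mTORC1 from mTORC2, stood at 1.95 in the 2D monoculture, 4.27 in the 2D co-culture, 5.12 in the spheroid and 0.297 in the tumor. Rptor was thus the more abundant transcript in every culture and Rictor in the tumor. The ratio was 17.2-fold higher in the spheroid than in the tumor, a log2 difference of 4.11, of which 2.69 was also seen between the median genes of their GC and length classes and 1.41 remained. Against the 2D monoculture, the log2 difference of 1.39 in the spheroid came to -0.13 after this step, and that of -2.71 in the tumor to -1.36.

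Tsc2 over Tsc1 was 2.68 in the 2D monoculture, 4.24 in the 2D co-culture, 6.48 in the spheroid and 1.23 in the tumor. Rheb over Tsc1 was 10.9 in the 2D monoculture, 29.9 in the 2D co-culture, 98.3 in the spheroid and 17.1 in the tumor. The activator outnumbered this subunit of its inhibitor most in the spheroid, 9.01-fold more than in the 2D monoculture. Of that log2 difference of 3.17, 2.49 remained after the medians of the classes were taken off. In the same step, the spheroid's log2 difference in Tsc2 over Tsc1 from the 2D monoculture went from 1.27 to 0.23, and the tumor's in Rheb over Tsc1 from 0.65 to -0.78. Rheb over Tsc2 was 4.07, 7.06, 15.2 and 13.9 in the same order of libraries, so it was high in both the spheroid and the tumor. Against the 2D monoculture, the log2 difference in this ratio went from 1.90 to 2.27 in the spheroid after the class medians, and from 1.78 to 0.11 in the tumor.

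Eif4ebp1 over Eif4e, the cap-binding protein that 4E-BP1 holds, was 6.25 in the 2D monoculture, 6.48 in the 2D co-culture, 17.3 in the spheroid and 1.92 in the tumor. The spheroid was 8.98-fold above the tumor in this ratio, and 2.56 of the log2 difference of 3.17 remained after the class medians. Against its paralog Eif4ebp2, Eif4ebp1 stood at 1.86, 1.65, 4.24 and 2.43 in the same order. After the class medians, the tumor's log2 difference in this ratio from the 2D monoculture went from 0.39 to -0.35. That of the spheroid from the tumor went from 0.80 to 2.43. Relative to Mtor, Akt1s1 ranged from 7.68 in the 2D monoculture to 24.7 in the spheroid, and Deptor from 0.359 in the spheroid to 1.38 in the tumor. Against the tumor, the spheroid's log2 change was lower for Deptor than for Mtor (-1.68 and 0.26). After the class medians it was higher for Deptor (-0.06 and -0.24), so the direction of that difference depends on the processing. Against the 2D monoculture, the spheroid's log2 changes in Akt1s1 and Mtor were 0.12 and -1.56. After the class medians they were -0.60 and -1.23, so the gap between these genes narrowed. Mlst8 over Mtor was 0.398 in the 2D monoculture and between 0.924 and 0.941 in the other 3 libraries, whose intervals overlapped. Against the 2D monoculture, the spheroid's log2 changes in Mlst8 and Mtor after the class medians were -0.80 and -1.23. Those of the 2D co-culture were 0.14 and -0.72, and those of the tumor 0.29 and -0.66. The likeness of these 3 libraries thus depends on the processing.

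**Figure D2:**
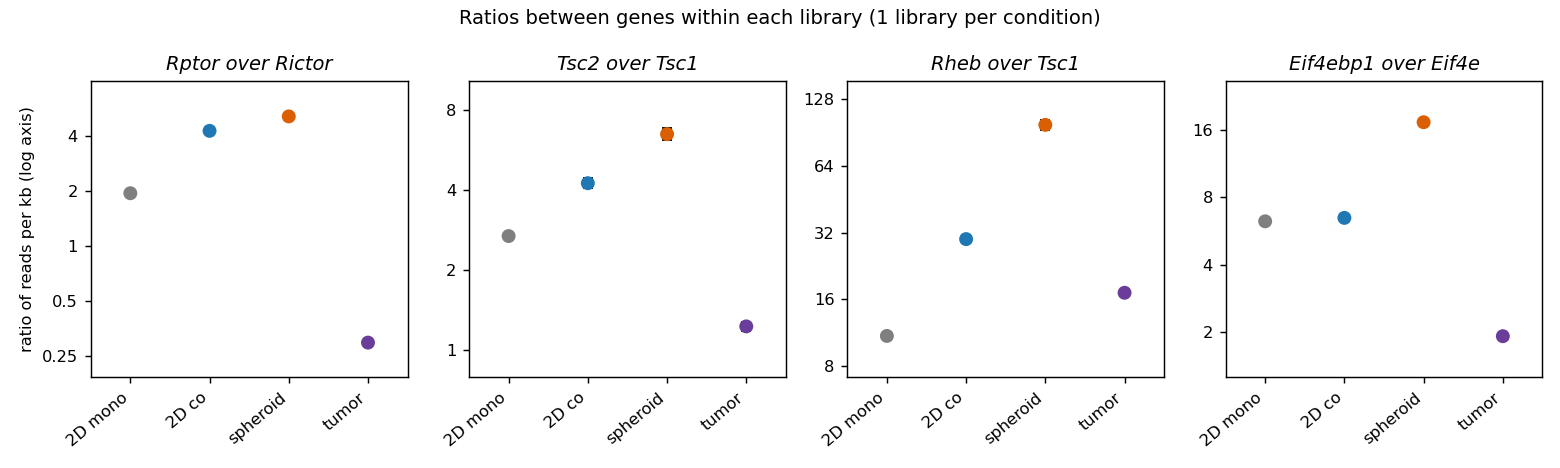
Ratio of reads per kb of exon between genes of the same library (log axis), with 1 point per library and bars for the 95% counting interval, which are mostly smaller than the points. Rptor over Rictor, Tsc2 over Tsc1 and Eif4ebp1 over Eif4e are lowest in the tumor, whereas Rheb over Tsc1 is lowest in the 2D monoculture at 10.9, and all 4 ratios are highest in the spheroid.

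In the spheroid against the 2D monoculture, Eif4ebp1 was more than 2-fold higher, and Mtor, Rictor, Deptor, Tsc1 and Tsc2 were more than 2-fold lower. This is 1 of 10 members higher, where 16.4% of all genes were, and 5 of 10 lower, where 21.6% of all genes were. The median log2 ratio was -0.79 over the members and 0.10 over all genes. Deptor (-2.65, interval -2.72 to -2.57) and Tsc1 (-2.30, interval -2.38 to -2.22) were the lowest. Tsc2 lay at the threshold, at 2.04-fold with an interval of -1.07 to -0.99, and was under 2-fold with DESeq2 or upper quartile scaling. Rictor was no longer past 2-fold against genes of like GC content and length (-0.53 in place of -1.94), and Rheb then passed it (1.12 in place of 0.87). The small ratio of Akt1s1, 0.12, changed sign in that step (-0.60).

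In the 2D co-culture against the 2D monoculture, 0 members were more than 2-fold higher, against 8.3% of all genes, and 3 of 10 (Rictor, Deptor and Tsc1) were more than 2-fold lower, against 12.7% of all genes. The median log2 ratio was -0.51 over the members and 0.01 over all genes. Against genes of like GC content and length, the median of the members was -0.36. Rictor had the lowest ratio, at -1.66 (interval -1.72 to -1.60), and Mtor came close to the threshold at 1.92-fold lower. Against genes of like GC content and length, none of the 3 stayed past 2-fold, with Rictor at -0.88, Deptor at -0.34 and Tsc1 at -0.70.

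In the tumor against the 2D monoculture, 0 members were more than 2-fold higher, against 16.5% of all genes, and 5 of 10 (Mtor, Rptor, Akt1s1, Tsc2 and Eif4ebp1) were more than 2-fold lower, against 20.3% of all genes. The median log2 ratio was -0.99 over the members and -0.15 over all genes. Against genes of like GC content and length, the median of the members was -0.48. Rptor had the lowest ratio, at -2.08 (interval -2.13 to -2.03), followed by Mtor at -1.83 and Tsc2 at -1.73. Eif4ebp1 was only just past the threshold, at 2.01-fold, and 4 other scalings put it under 2-fold. Deptor was just short of it at 1.95-fold. Against genes of like GC content and length, Mtor (-0.66), Rptor (-0.79), Akt1s1 (-0.46) and Tsc2 (-0.50) were under 2-fold, and Deptor (-1.03) and Eif4ebp1 (-1.45) were past it. Mlst8 (0.29 in place of -0.58) and Tsc1 (0.39 in place of -0.60) changed sign.

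**Figure D3:**
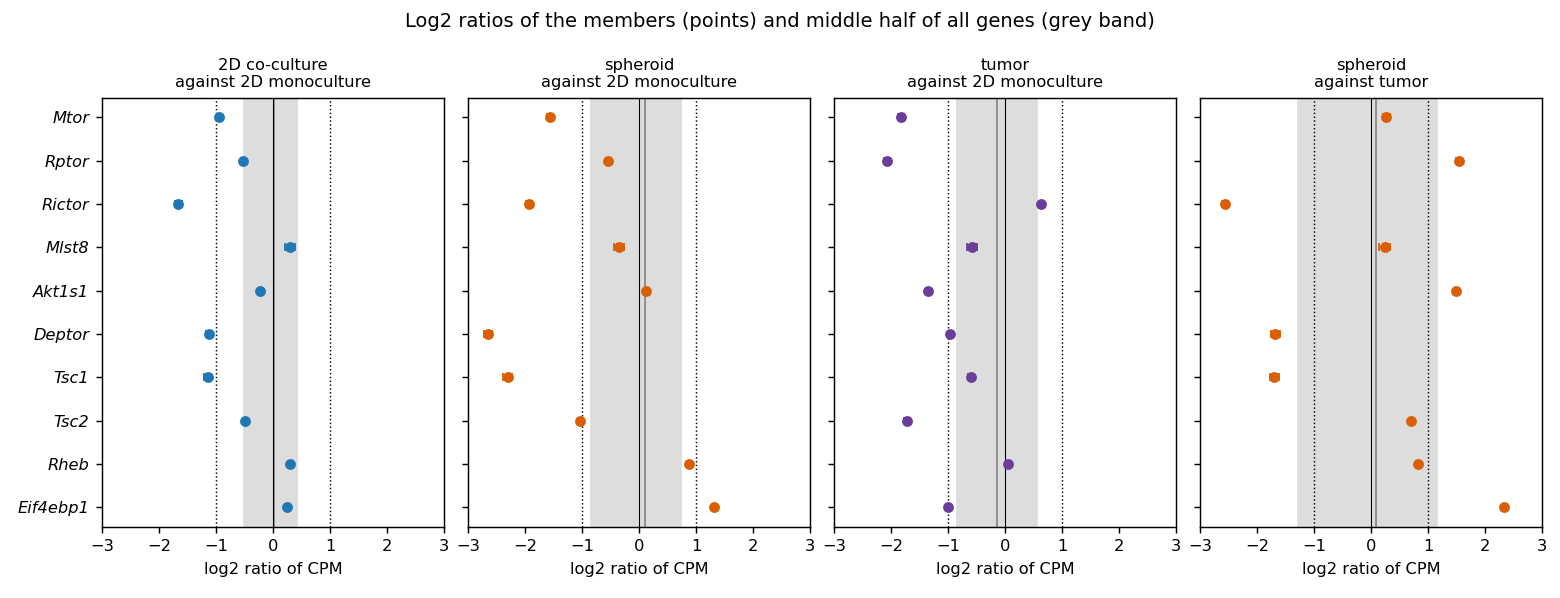
Log2 ratio of TMM-scaled CPM of each member in 4 of the comparisons (panels), 1 point per gene, with bars for the 95% counting interval, dotted lines at 2-fold, a black line at 0, and a grey band and grey line for the middle 50% and the median of all genes. Deptor and Tsc1 are the lowest members in the spheroid against the 2D monoculture at -2.65 and -2.30, and Rptor and Mtor in the tumor against the 2D monoculture at -2.08 and -1.83.

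The spheroid and the tumor were also compared directly, which does not involve the 2D monoculture that the comparisons above share. Here Rptor, Akt1s1 and Eif4ebp1, 3 of 10 members, were more than 2-fold higher in the spheroid, against 28.4% of all genes, and Rictor, Deptor and Tsc1, 3 of 10, were more than 2-fold lower, against 29.2% of all genes. Both shares are near those of all genes. The median log2 ratio was 0.48 over the members and 0.08 over all genes. Eif4ebp1 (2.33, interval 2.31 to 2.35) and Rictor (-2.57, interval -2.62 to -2.52) marked the ends. Against genes of like GC content and length, Eif4ebp1 (2.93) and Tsc1 (-1.70) kept a ratio past 2-fold and Rheb (1.42) gained one, Rptor (0.47), Rictor (-0.95) and Deptor (-0.06) were under it, and Akt1s1 changed sign (-0.10), as did Tsc2 (-0.45 in place of 0.70) and Mlst8 (-0.77 in place of 0.23).

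In the spheroid against the 2D co-culture, both grown with NIH/3T3 fibroblasts but unlike in fibroblast marker RNA (36.5 against 679 CPM summed), Eif4ebp1 was more than 2-fold higher, 1 of 10 members against 12.4% of all genes. Deptor (-1.52) and Tsc1 (-1.15) were more than 2-fold lower, 2 of 10 members against 13.1% of all genes. The median log2 ratio was -0.41 over the members and -0.03 over all genes. Against genes of like GC content and length, Deptor stayed past 2-fold (-1.10), Tsc1 did not (-0.61), and Mlst8 passed it (-1.02 in place of -0.65). Rictor (0.15 in place of -0.28) and Akt1s1 (-0.22 in place of 0.36) changed sign.

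GC content moved with the ratios in all genes, which were split by it into 10 classes of equal size. In the spheroid against the tumor, the class lowest in GC had a median log2 ratio of -1.26 and the highest class 1.70. In the tumor against the 2D monoculture, the same classes stood at 0.52 and -0.89, and in the spheroid against the 2D monoculture at -0.61 and 0.80. The members span this range, from Rictor with 42.5% GC in its longest transcript and Deptor with 44.3%, to Akt1s1 with 63.3%, the 99.1st percentile. Rictor, Mtor, Deptor and Tsc1 also have long transcripts, of 9312, 8564, 8547 and 7702 bases, whereas those of Eif4ebp1 and Rheb have 1997 and 1784 bases. Eif4ebp1 and Rheb were higher in the spheroid than in the 2D monoculture, and the median log2 ratio of their class was -0.25. The part of GC content and length in the members' ratios was not tested beyond these class medians.

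**Figure D4:**
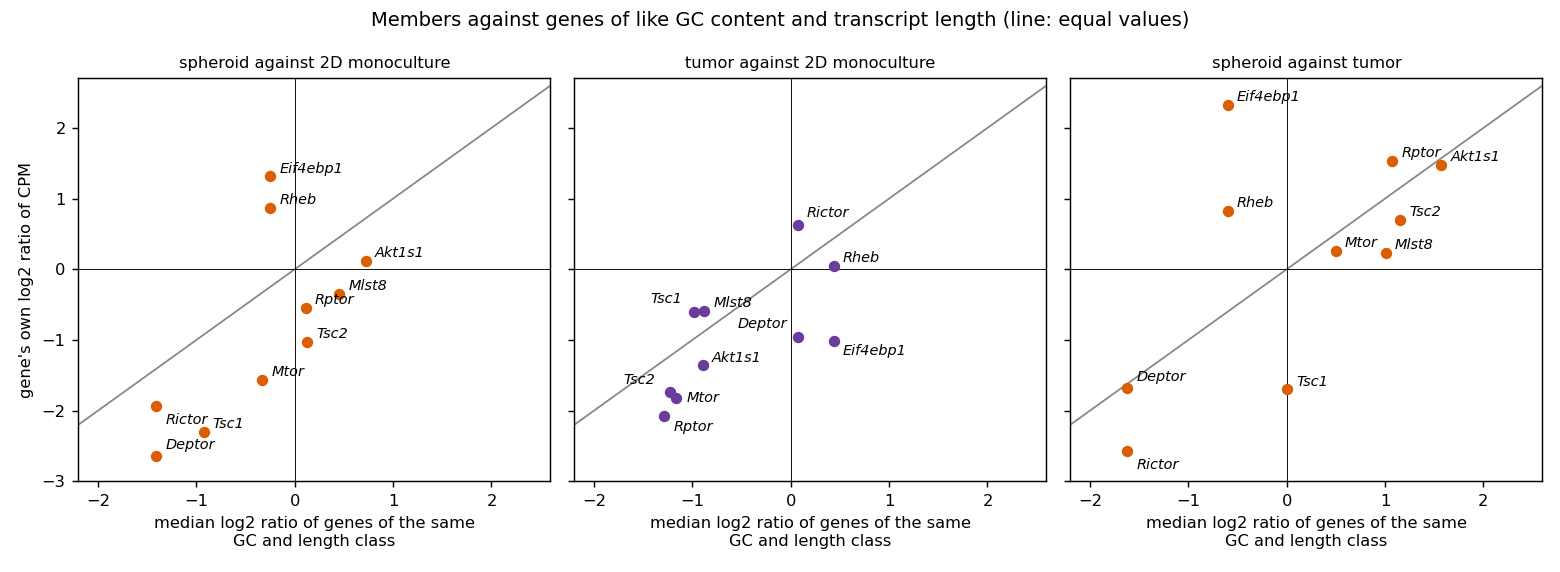
Log2 ratio of each member (vertical axis) against the median log2 ratio of all genes of the same class of GC content and transcript length (horizontal axis), in 3 comparisons, with a line where both are equal. Eif4ebp1 and Rheb lie above the line in both spheroid comparisons, with a class median of -0.60 against the tumor, whereas Deptor (-1.68 against a class median of -1.62) and Akt1s1 (1.48 against 1.57) lie close to it in the spheroid against the tumor.

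The profile of Mtor was set beside that of each of the 7792 genes with at least 10 CPM in every library, by the root mean square difference of log2 CPM centred on the mean of the 4 libraries. The nearest were Srrm2 at 0.0384, a splicing coactivator gene, Gm15800 at 0.0574, Supt5 at 0.0900, a transcription elongation factor gene, Sipa1l1 at 0.0913 and Kmt2a at 0.0982, a histone methyltransferase gene. Srrm2 went from 482 CPM in 2D monoculture to 251 CPM in 2D co-culture, 174 CPM in spheroid and 140.3 CPM in tumor. Among the other members, Tsc2 was nearest to Mtor at 0.227, in place 60, followed by Rptor at 0.482, in place 725. Rictor was farthest, at 1.25 in place 7532 of 7792, although its protein binds the same kinase. Tsc1 was not near Tsc2 (0.890) but near Deptor (0.183), which held place 48 of the genes nearest to Tsc1. These distances rest on 4 libraries and include differences that moved with GC content.

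Beyond the members, 58 further genes of the pathway were taken from 6 lists. In the spheroid against the 2D monoculture, 7 of 58 (12.1%) were more than 2-fold higher and 13 (22.4%) lower, beside 16.4% and 21.6% of all genes, with a median log2 ratio of -0.15. In the tumor against the 2D monoculture, 1 was higher (Grb10, 1.72%) and 13 lower (22.4%), beside 16.5% and 20.3% of all genes, with a median of -0.32. In the 2D co-culture against the 2D monoculture, 2 were higher (Grb10 and, named after its value was seen, Sgk1) and 8 lower (13.8%), beside 8.3% and 12.7% of all genes, with a median of -0.29. The shares of genes that were lower are thus near those of all genes. With GC content and length taken into account, 1 of the 7 higher and 5 of the 13 lower genes stayed past 2-fold in the spheroid, 1 of 1 and 5 of 13 in the tumor, and 2 of 2 and 2 of 8 in the 2D co-culture.

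The sestrins, CASTOR and REDD proteins restrain mTORC1 when leucine or arginine is scarce or under stress. Their 7 genes had a median log2 ratio of spheroid to tumor of 1.35 (1.24 after the class medians), beside 0.08 over all genes. Of these, 2 were more than 2-fold higher in the spheroid than in the 2D monoculture (16.4% of all genes) and 4 more than 2-fold lower in the tumor (20.3% of all genes). After the class medians were taken off, Castor1 (0.55) and Ddit4 (0.52) were under 2-fold in the spheroid, and 3 of the 4 stayed past it in the tumor, without Castor2 (-0.09). Sesn2, a leucine sensor, was at 103 CPM in 2D monoculture, 77.4 in 2D co-culture, 186 in spheroid and 14.6 in tumor. Castor1, an arginine sensor, followed the same order, at 27.4, 24.9, 65.0 and 4.85 CPM, and Castor2 stood at 25.4, 16.2, 38.6 and 11.6 CPM. Ddit4, which encodes REDD1, was at 160.0, 107, 376 and 148 CPM, so it was high in the spheroid but not low in the tumor. All 7 genes were lower in the 2D co-culture than in the 2D monoculture, with a median log2 ratio of -0.55 beside 0.01 over all genes. None was lower by more than 2-fold, beside 12.7% of all genes. The share of all genes lower by any amount is not given here. Against genes of like GC content and length, Sesn3 (0.08) and, named after its value was seen, Ddit4l (0.005) were no longer lower. Sesn3 was at 20.3 CPM in 2D monoculture and 7.66 CPM in tumor. In the spheroid against the tumor, 4 of the 7 were more than 2-fold higher (28.4% of all genes) and 1, Sesn1, lower (29.2% of all genes), which is named here after its value was seen. The ratio of Ddit4 in that comparison changed sign against genes of like GC content and length (-0.03).

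Of the 10 genes of the Rag GTPases and the Ragulator, the lysosomal platform of mTORC1, Lamtor2 was more than 2-fold higher in the spheroid than in the 2D monoculture, at 333 against 150.2 CPM, beside 16.4% of all genes. It was under 2-fold against genes of like GC content and length (log2 0.47 in place of 1.15). Rragb, chosen for mention after its values were seen, was more than 2-fold lower in the spheroid, at a log2 ratio of -1.35, beside 21.6% of all genes. In the tumor, 0 of the 10 passed 2-fold, beside 16.5% of all genes higher and 20.3% lower. Against genes of like GC content and length, Rragb stayed past 2-fold in the spheroid (-1.01) and passed it in the tumor (-1.22 in place of -0.68). Of the 14 genes of the GATOR and folliculin complexes, which relay amino acid supply to the Rag GTPases, 5 were more than 2-fold lower in the spheroid (Depdc5, Mios, Wdr59, Fnip1 and Fnip2) and 4 in the tumor (among them Wdr24, Wdr59 and Itfg2), beside 21.6% and 20.3% of all genes. In either, 0 were higher, beside 16.4% and 16.5% of all genes. Of the lower genes, Fnip2 (-1.62) stayed past 2-fold in the spheroid against genes of like GC content and length and 0 of the 4 did in the tumor, where the median of the list went from -0.59 to 0.03. Depdc5 was the lowest of these in the spheroid, at 12.9 CPM against 40.3 CPM in 2D monoculture. Wdr59 was low in both, at 34.7 CPM in 2D monoculture, 16.7 in spheroid and 14.5 in tumor.

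Of the 11 genes of the PI3K-AKT and LKB1-AMPK kinases, which carry growth factor and energy signals, 4 were more than 2-fold lower in the spheroid (Pik3ca, Pik3cb, Pik3r1 and Pdpk1) and 3 in the tumor (Pik3cb, Akt1 and Prkaa2), beside 21.6% and 20.3% of all genes. In either, 0 were higher, beside 16.4% and 16.5% of all genes. With the same correction, 0 of the 4 stayed past 2-fold in the spheroid, where the median of the list turned from -0.50 to 0.30, and Prkaa2 (-1.48) alone of the 3 did in the tumor. Pik3r1, a regulatory subunit of PI3K, went from 24.8 CPM in 2D monoculture to 5.58 in spheroid and was at 30.6 in tumor. Akt1 was at 1199 CPM in 2D monoculture, 1309.8 in 2D co-culture, 1457 in spheroid and 488 in tumor. In that step, Pdpk1 was higher in the spheroid than in the 2D monoculture (0.30), and Akt1 was lower in the spheroid than in the tumor (-0.32).

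Of the 12 substrates and effectors, Tfeb, Rps6kb2 and Grb10 were more than 2-fold higher in the spheroid than in the 2D monoculture, beside 16.4% of all genes. Eif4ebp3, named after its values were seen, was more than 2-fold lower at 0.874 against 2.48 CPM, beside 21.6% of all genes. Tfeb, the transcription factor of lysosomal genes that mTORC1 keeps out of the nucleus, was at 33.9 CPM in 2D monoculture, 34.9 in 2D co-culture, 93.3 in spheroid and 30.5 in tumor. Rps6kb2, an S6 kinase gene, was at 16.8, 25.8, 37.3 and 10.9 CPM in the same order. Grb10, an adaptor that mTORC1 phosphorylates, rested on 10 reads in the 2D monoculture and 26 in the spheroid, 0.0702 and 0.191 CPM. It reached 13.4 CPM in 2D co-culture and 30.2 CPM in tumor, the libraries with the most fibroblast marker RNA, and its source was not tested. Eif4ebp2 and Ulk1, the kinase gene that starts autophagy, were more than 2-fold lower in the tumor than in the 2D monoculture, at 44.2 against 117 CPM and at 15.4 against 50.2 CPM, beside 20.3% of all genes. Once the medians of like genes were taken off, Tfeb (0.65) and Rps6kb2 (0.95) were under 2-fold in the spheroid against the 2D monoculture, which left Grb10 with its few reads, and Ulk1 (-0.41) was under it in the tumor. The ratio of Tfeb in spheroid to tumor changed sign in that step (-0.13).

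Of the 4 further mTORC2 and TSC partners, Mapkap1, which encodes the mTORC2 subunit mSIN1, was at 80.0 CPM in 2D monoculture, 58.9 in 2D co-culture, 35.7 in spheroid and 54.4 in tumor. It shared the low spheroid level of Rictor but not its high tumor level. Prr5, which encodes the mTORC2 subunit Protor-1, was at 11.6, 17.2, 24.6 and 7.73 CPM in the same order and was highest where Rictor was lowest, with a ratio to the 2D monoculture that went from 1.08 to 0.36 on the log2 scale against genes of like GC content and length. Prr5l, which encodes the related subunit Protor-2, is named after its values were seen. It was at 2.51, 0.838, 0.250 and 3.06 CPM in the same order, with 34 reads in the spheroid. Prr5l was thus more than 2-fold lower in the spheroid than in the 2D monoculture. Like Rictor, it was lowest in the spheroid and highest in the tumor.

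**Figure D5:**
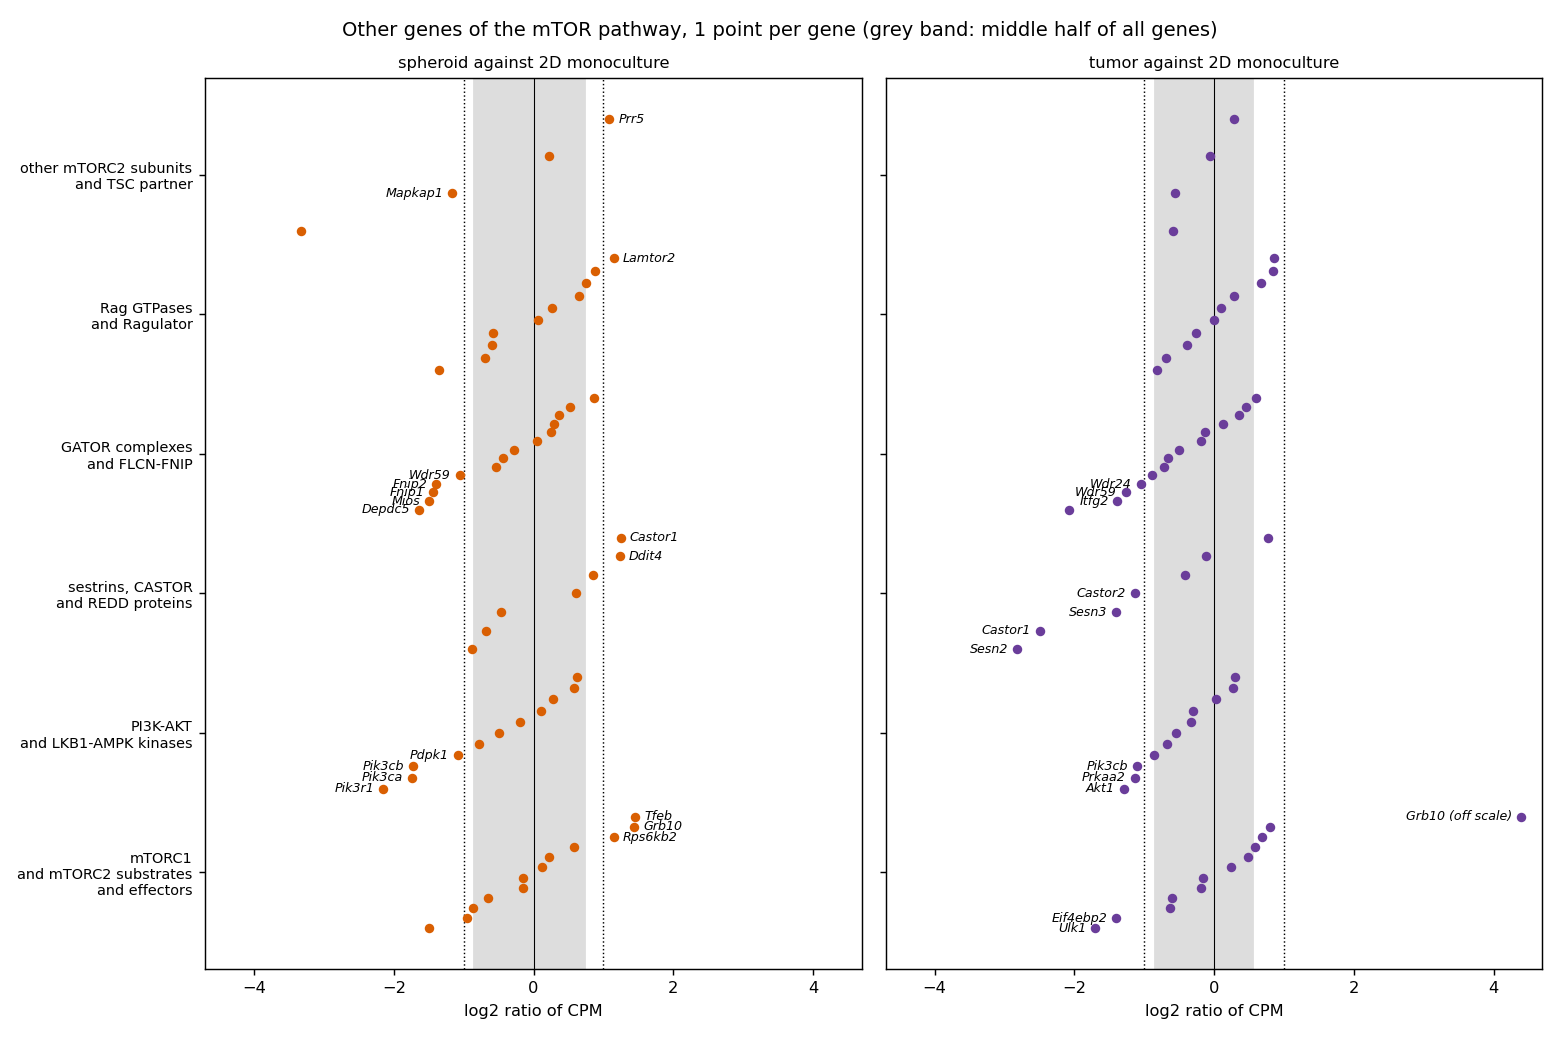
Log2 ratio of CPM of the 58 other genes of the mTOR pathway by list (rows), 1 point per gene, in the spheroid and the tumor against the 2D monoculture, with dotted lines at 2-fold and a grey band for the middle 50% of all genes. Labels name genes past 2-fold with at least 10 CPM in a library, with 1 such point in the tumor left without a label, and Grb10 in the tumor, 30.2 against 0.0702 CPM, lies off the scale.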

How the data were processed

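The authors deposited 1 table of whole-number read counts per gene symbol for 4 libraries, without normalization. Poly(A) RNA libraries were read as pairs, per the labels. Trimmomatic, STAR, featureCounts and the build mm10 are named in the submitters' processing notes, without a version. Columns were assigned to conditions through their labels, with 0 left over. NOISeq and GFold, the callers of the study, were not run, since simulated replicates are not used here.

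CPM values were computed with TMM factors from edgeR 4.0.16 in R 4.3.3, and levels carry exact Clopper-Pearson 95% intervals. Ratios have nothing added, and their intervals are exact binomial. Python 3.11.15 was used with numpy 2.4.6, pandas 2.3.3 and scipy 1.17.1. Alternatives were DESeq2 1.42.0 size factors, total counts, upper quartiles, 1 CPM added, a filter at a mean of 1 CPM before TMM, a 1.5-fold threshold, whole intervals past 2-fold, and removal of the median of 10 by 10 classes of GC content and length. GC, length and exons came from GENCODE M21 (GRCm38, the build of mm10) for 99.5% of 12728 genes, and promoters from RefSeq for 8 of 10 members. Castor1 and Castor2 were matched through RefSeq synonyms. The scripts were tested on simulated data.

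Genes named are the 10 members, pathway genes past 2-fold in the spheroid or the tumor against 2D monoculture with at least 10 CPM in a library, and the 5 genes nearest to Mtor. A pathway gene that this rule names is not reported here. The members and lists were chosen with earlier results of these data known.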

Additional observations from a re-analysis of the deposited data

How the results depend on the processing

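No paired analysis was possible because there is 1 library per condition. Counts within 1.5 times the value of the report were taken as the same. With the GC and length correction, members more than 2-fold higher in the spheroid than in the 2D monoculture went to 2, members lower in the 2D co-culture to 0, members lower in the tumor to 2, and members lower in the spheroid than in the tumor to 1, with a median of -0.17 in that last comparison. Among ratios past 2-fold, it reversed those of Pdpk1 in the spheroid to the 2D monoculture (0.30) and, in the spheroid to the tumor, of Akt1s1 (-0.10), Ddit4 (-0.027), Akt1 (-0.32) and Tfeb (-0.13). Pathway genes also reversed in the spheroid to the tumor, named after their values were seen, were Stk11 (-0.55 in place of 1.43), Rps6kb1 (0.18 in place of -1.35) and Seh1l (0.24 in place of -1.03). Smaller ratios of members that also changed sign were those of Mtor (-0.24), Tsc2 (-0.45) and Mlst8 (-0.77) in the spheroid to the tumor, Mlst8 (0.29), Tsc1 (0.39) and Rheb (-0.39) in the tumor to the 2D monoculture, Akt1s1 (-0.60) in the spheroid to the 2D monoculture, and Rictor (0.15) and Akt1s1 (-0.22) in the spheroid to the 2D co-culture. With a 1.5-fold threshold, members higher were 2 in the spheroid and 1 in the tumor against the 2D monoculture and 5 in the spheroid against the tumor, and members lower in the spheroid than in the 2D co-culture were 4. With total counts, members higher in the spheroid than in the 2D co-culture went to 0. The shares of all genes past the threshold under these other settings are not given here, so these counts describe the members only. Total counts shifted the median of all genes by -0.36 in the spheroid against the tumor and by 0.24 in the tumor against the 2D monoculture, and upper quartiles shifted the latter by 0.25. The cause of these changes was not tested, other than that the lower threshold admits more genes by construction. Depth does not limit the members, each with at least 1576 reads, whereas the missing replicates limit every comparison.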
